A study of Pan paniscus with 11 samples.

Results

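Genes of the smooth muscle contractile apparatus, together with the heart muscle actin ACTC1, were followed in cultured bonobo (Pan paniscus) fibroblasts, 10 genes in all. They were ACTA2, ACTC1, ACTG2, TAGLN, CNN1, TPM1, TPM2, MYH11, MYL9 and MYLK. Members were taken by name from the probe annotation, which gave 18 probe sets for the 10 genes, out of 12558 non-control probe sets on the array. Of these 18, 16 lay above the floor, an intensity of 100 to which lower values were raised, in at least 5 of the 11 cultures and were tested. They stood for 9 genes, since the single probe set of ACTG2 and 1 of the 5 for MYH11 were too often at the floor. A gene with several probe sets is given by the one with the highest mean unless another is named.

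Each of 10 lines was grown from a different normal animal, 5 female and 5 male, and was harvested once under the study's standard conditions. The females were aged 9, 2, 4, 20 and 20 years (female lines 1 to 5), the males 4, 2, 12, 17 and 19 years (male lines 1 to 5). An eleventh array came from a second culture of male line 1, taken at 50% confluence. All cells were untreated, and each line stands for 1 animal in 1 culture, with no passage number in the labels and the tissue given as fibroblast alone.

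In a contractile cell, myosin filaments pull on actin filaments. Smooth muscle uses its own actins (ACTA2, ACTG2), a heavy chain motor (MYH11) whose regulatory light chain (MYL9) is switched on by a kinase (MYLK), and proteins that lie along the actin filament (the tropomyosins TPM1 and TPM2, calponin CNN1 and transgelin TAGLN). Fibroblasts in culture often make several of these proteins, and ACTA2 is the usual mark of a myofibroblast, the contractile fibroblast of wounds and fibrosis. Transcription of many of these genes depends on the factor SRF and its actin-sensing partners, and on TGF-beta signalling.

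Arrays differed little in overall level, with trimmed mean intensities of 408 to 423, but more at the top of the range. The 99th percentile of intensity ran from 8392 in male line 3 to 12294 in male line 5. The 3 controls for 18S ribosomal RNA lay between 1508 and 2611 for the culture at 50% confluence. They lay between 146 and 313 for male line 4, and no other array exceeded 171. The ratio of the 3' to the 5' control probe set of ACTB, a measure of RNA integrity, was 2.27 in male line 4, 0.669 in the 50% confluence culture and 0.853 to 1.44 elsewhere. These are bulk RNA values, so fewer expressing cells and less RNA per cell cannot be told apart.

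Fibroblast markers were present throughout, with 10 of 10 measured genes above the floor in all 11 cultures. Markers of mature smooth muscle and pericytes, the cells that wrap blood vessels, were mixed. Of 14 measured, 5 were above the floor in all 11 cultures and 5 in 4 or fewer. The filament gene DES, the calcium store gene CASQ2 and the calcium pump regulator PLN were at the floor in all 11. Among pericyte genes, RGS5 was above it in 2 and CSPG4 in 10. PDGFRB (1951 to 6679 in the standard lines) and NOTCH3 (256 to 2223) were above it in all 11. SMTN, a smooth muscle filament protein, was above the floor in all 11 (1350 to 3750 in the 10 standard lines), and LMOD1, a nucleator of actin filaments, in 10. Of 24 striated muscle markers, 19 were above the floor in 4 cultures or fewer. Of all 12558 probe sets, 7333 were above the floor in at least 5. MYOD1, the master regulator of skeletal muscle, was above it in 1, and the cardiac and skeletal genes MYH7, ACTN2, TNNI3 and TNNI2 in none. The 5 tested markers of this list, TNNT1, TNNT3, MYOG, ACTA1 and MYL2, were above it in 11, 10, 9, 7 and 5 cultures. TNNT1 read 763 to 2612 in the standard lines. ACTA1, the skeletal muscle actin, did not exceed 348 in the standard lines. Endothelial, keratinocyte, melanocyte and blood cell markers had median intensities of 100, 108, 100 and 151. Above the floor in all 11 cultures were 1 of 7 endothelial markers (ERG) and 1 of 7 keratinocyte markers (KRT10). So were 0 of 5 melanocyte and 2 of 5 blood cell markers (CD68 and CD3E). In at least 5 cultures, 1 of 7 endothelial and 3 of 7 keratinocyte markers were above the floor. The same held for 3 of 5 melanocyte and 3 of 5 blood cell markers. KRT1 was above it in 10 cultures, and DSP, SOX10 and HBB in 9 each.

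**Figure D1:**
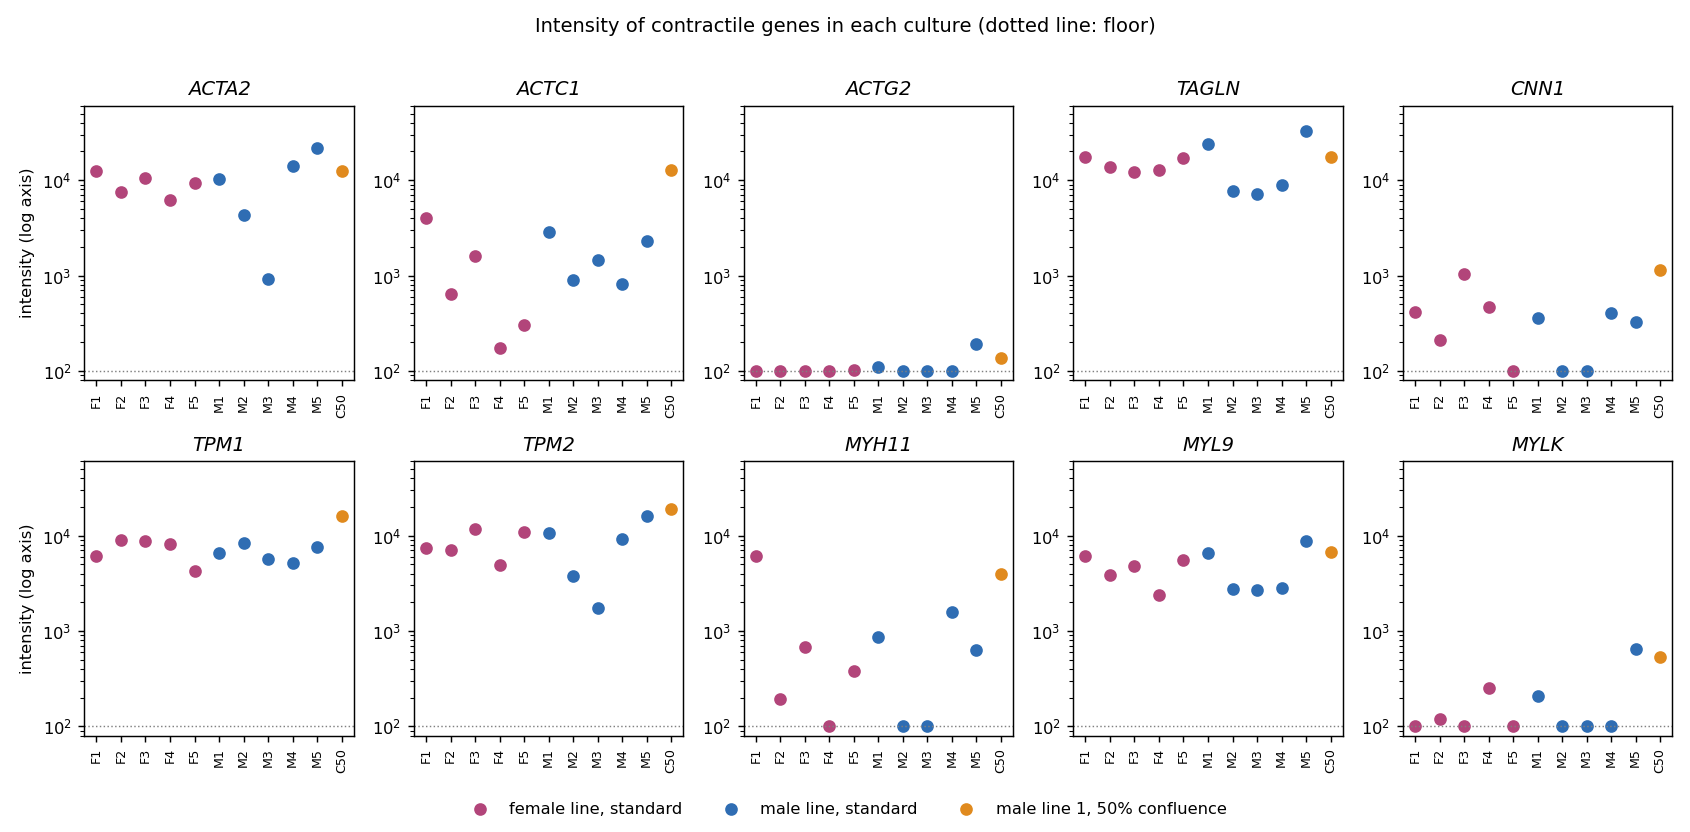
Deposited intensity (log axis) of the 10 contractile genes, 1 probe set each, in female lines F1 to F5, male lines M1 to M5 and the 50% confluence culture C50 of male line 1. ACTA2 is lowest in M3 at 915, and C50 lies above all standard lines for ACTC1, CNN1, TPM1 and TPM2.

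Among the actins, ACTA2, the smooth muscle alpha actin, read 4330 or more in 9 of the 10 standard lines. Female lines 1 to 5 read 12477, 7565, 10579, 6265 and 9250, and male lines 1 to 5 read 10185, 4330, 915, 13964 and 21614. The females lay within the male range, and the males held both the lowest line (male line 3) and the highest (male line 5). The difference between these was 23.6-fold. The SD of log2 intensity was 0.39 in females and 1.80 in males (n = 5 each), a difference in spread that was not tested.

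ACTC1, the actin of heart muscle that is also made before birth in skeletal muscle, followed another order. Female lines 1 to 5 read 3974, 635, 1587, 174 and 301, and male lines 1 to 5 read 2842, 898, 1443, 806 and 2314. Female line 1 was highest and both females of 20 years were lowest. Male line 3, lowest for ACTA2, had rank 5 of 10 here, between female line 3 and male line 2. ACTG2, the gamma actin of gut and bladder muscle, was at the floor in 7 of 10 standard lines and read 101, 110 and 190 in female line 5, male line 1 and male line 5. Actin proteins are nearly identical to each other, and the probe sequences were not examined, so signal shared between actin genes was not tested.

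Among proteins bound along actin, TAGLN, an actin cross-linking protein of smooth muscle, read 17482, 13828, 12203, 12707 and 17154 in female lines 1 to 5. Male lines 1 to 5 read 24068, 7733, 7213, 8982 and 32430. The males again spanned the females, with male lines 2, 3 and 4 below every female and male lines 1 and 5 above every female. TPM2, the beta tropomyosin, read 7437, 7050, 11689, 4939 and 11018 in females and 10584, 3805, 1738, 9218 and 16122 in males. Male line 3 was lowest and male line 5 highest, as for ACTA2 and TAGLN.

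All 3 probe sets of TPM2 were lowest in male line 3 and highest in male line 5, with correlations between them of 0.84 to 0.96 over the 10 lines. TPM1, the alpha tropomyosin, was the steadiest member. Its leading probe set (36792_at) read 6092, 9084, 8796, 8242 and 4278 in female lines and 6510, 8335, 5743, 5113 and 7681 in male lines, a 2.12-fold range. The other TPM1 probe sets (36791_g_at and 36790_at) correlated with each other at 0.91 but with the leading one at 0.39 and 0.52. The order of the lines for TPM1 thus differed between its probe sets, and the cause was not tested.

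CNN1, calponin, a thin filament protein that restrains the motor, was low. Female lines 1 to 5 read 415, 211, 1033, 470 and 100, and male lines 1 to 5 read 362, 100, 100, 406 and 329. It was thus at the floor in female line 5 and male lines 2 and 3, and its highest line, female line 3, was at least 10.3-fold above these.

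Among the motor genes, MYH11, the smooth muscle myosin heavy chain, varied most of all members. Its leading probe set (37407_s_at) read 6163, 195, 680, 100 and 378 in female lines 1 to 5 and 874, 100, 100, 1567 and 626 in male lines 1 to 5. Female line 1 alone was at least 61.6-fold above female line 4 and male lines 2 and 3, which were at the floor. A second probe set (767_at) gave 4195 in female line 1 and 100 to 1054 in the other 9 lines. Correlations between the 4 tested MYH11 probe sets were 0.81 to 0.94, and all 5 probe sets were highest in female line 1.

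MYL9, the regulatory light chain, read 6170, 3862, 4831, 2387 and 5599 in female lines and 6616, 2745, 2661, 2802 and 8808 in male lines. It had a 3.69-fold range, with male line 5 highest. MYLK, the light chain kinase, was at the floor in 6 of 10 lines and read 119 and 252 in female lines 2 and 4 and 207 and 644 in male lines 1 and 5. The MYLK probe set was thus above the floor in 4 standard lines, with male line 5 highest.

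Spread between lines was large for most of these genes. Of 16 tested member probe sets, 6 had an SD of log2 intensity above 1 over the 10 standard lines, against 2.15% of all 7333 tested probe sets. The median SD was 0.92 for member probe sets and 0.43 for all. By gene, the SD was 1.96 for MYH11, 1.43 for ACTC1, 1.25 for ACTA2, 1.14 for CNN1, 0.94 for TPM2, 0.90 for MYLK, 0.70 for TAGLN, 0.66 for MYL9 and 0.37 for TPM1. Values at the floor hold the SD of MYH11, CNN1 and MYLK down. With quantile normalization, which gives every array the same top of the range, the SD was 1.21 for ACTA2, 0.57 for TAGLN, 0.60 for MYL9 and 0.90 for TPM2. Those of MYH11 and ACTC1 were then 1.96 and 1.41.

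Lists of related genes gave fewer such genes by the same count. None of the 10 measured non-muscle counterparts of the members, which build the cytoskeleton of all cells, had an SD above 1 (median 0.40), and the largest SD was that of the tropomyosin TPM4 (0.55). ACTB, the cytoplasmic beta actin, ran from 13068 to 21902 (SD 0.29). None of 15 other smooth muscle filament genes passed 1 either (median 0.45), the most variable being LMOD1 (0.90), the adaptor PDLIM5 (0.86), PDLIM7 (0.75) and CSRP1 (0.74). Of 15 TGF-beta pathway genes, TGFBI, a TGF-beta-induced matrix protein, exceeded 1 (1.16). The receptor TGFBR3 had 0.97 and the ligand TGFB1 0.86, and the median of that list was 0.65. The 9 tested markers of mature smooth muscle and pericytes came nearer to the members. Their median was 0.80, against 0.94 for the member genes, and 2 of them exceeded 1, CSPG4 (1.20) and NOTCH3 (1.002).

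**Figure D2:**
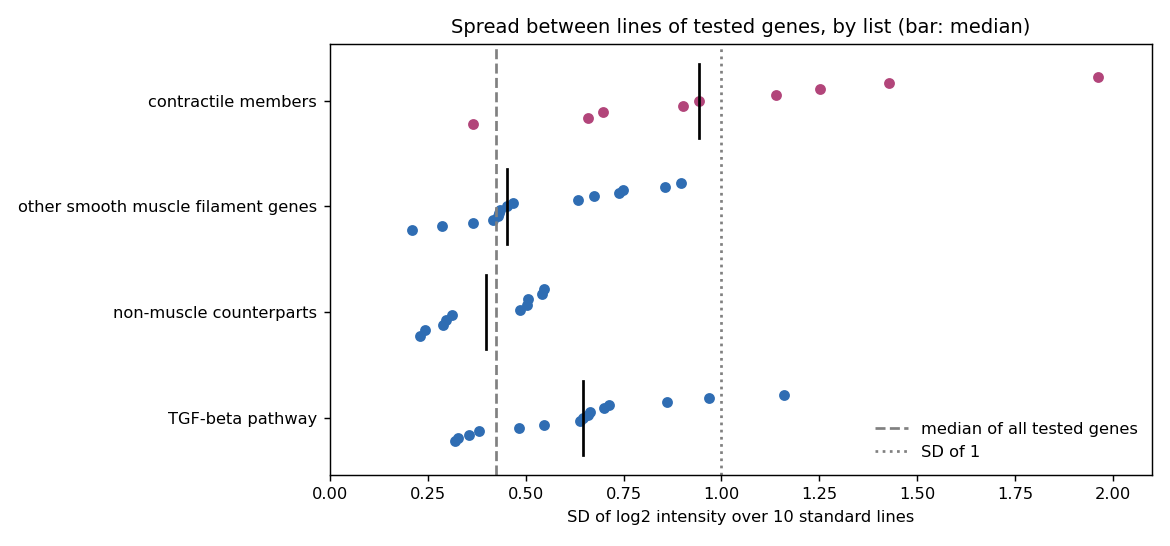
SD of log2 intensity over the 10 standard lines for each tested gene (points), by gene list, with the median of each list as a bar, the median of all tested genes as a dashed line and an SD of 1 as a dotted line. Of the 9 contractile members, 4 lie to the right of 1, and TPM1 is the lowest at 0.37.

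Members that were high in the same lines were sought next, as a description over 10 lines with no test. Of 36 pairs of the 9 tested genes, 15 had a Pearson r of at least 0.5, against 8.82% of all pairs of tested genes. The median r was 0.40, against 0.01 for all pairs. All values come from the same 10 arrays, so the pairs are not independent of each other.

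The closest pair was ACTA2 and TPM2, with r of 0.94 and a Spearman coefficient of 0.81, and r of 0.77 without the 2 lines farthest from the median of ACTA2. TAGLN and MYL9 followed (r of 0.90, Spearman coefficient of 0.85, and 0.82 without 2 lines). TAGLN and TPM2 reached 0.76, MYL9 and TPM2 0.75, ACTA2 and TAGLN 0.70 and ACTA2 and MYL9 0.63. Without the 2 lines farthest from the median of the first gene, these gave 0.54, 0.68, 0.46 and 0.62. By the same omission ACTA2 and CNN1 fell from 0.58 to 0.12, CNN1 and TPM2 from 0.53 to -0.05, and TAGLN and MYLK from 0.70 to 0.39. MYH11 and TPM2 rose from 0.59 to 0.76, and ACTC1 and MYL9 from 0.57 to 0.75. Male line 5 was first for ACTA2, TPM2, TAGLN and MYL9, and male lines 2 and 3 were in the last 3 places. The order between these ends differed, with male line 4 at rank 2 for ACTA2, 5 for TPM2, 7 for MYL9 and 8 for TAGLN. The ACTB measure of RNA integrity given above read 2.27 in this line, more than in any other culture. Leaving male line 4 out gave r of 0.84 for ACTA2 and TAGLN and 0.85 for TAGLN and TPM2. It also gave 0.84 for MYL9 and TPM2 and 0.77 for ACTA2 and MYL9, each above its value over 10 lines. ACTA2 and TPM2 then had 0.95, and TAGLN and MYL9 0.88. Male line 4 was singled out after its ranks were seen, and leaving out a line whose ranks differ between 2 genes tends to raise their r. The part of RNA integrity in these changes was not tested. MYH11 correlated with ACTA2 at 0.66 and with ACTC1 at 0.61, and the latter was 0.44 without female line 1.

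ACTC1 and ACTA2 gave 0.16 (Spearman coefficient of 0.45), and 0.53 without male line 3. TPM1 stood apart, with r from -0.33 (MYH11) to 0.36 (CNN1) and -0.02 with TPM2. The pair TPM1 and TPM2 gave 0.40 when the probe sets of each gene were averaged. Male line 3, lowest for ACTA2, TAGLN and TPM2, had the lowest 99th percentile of intensity, and male line 5, highest for ACTA2, TAGLN, TPM2, MYL9 and MYLK, had the highest. The r with the log2 of that percentile over the 10 lines was 0.70 for ACTA2, 0.68 for TAGLN, 0.69 for TPM2, 0.60 for MYL9, 0.15 for MYH11 and -0.02 for ACTC1. Spearman coefficients, in the same order, were 0.28, 0.53, 0.41, 0.52, 0.02 and -0.08. With quantile normalization, 16 of 36 pairs reached 0.5. Without male lines 3 and 5 together, an alternative chosen after seeing the data, 11 did, and ACTA2 and TAGLN fell to 0.40.

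**Figure D3:**
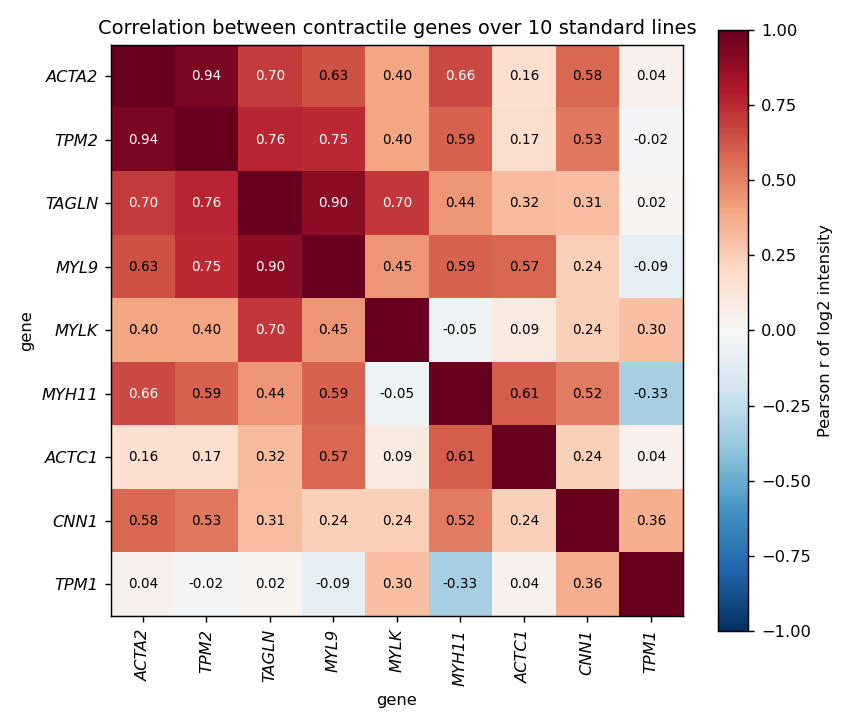
Pearson r of log2 intensity between each pair of the 9 tested contractile genes over the 10 standard lines, from blue (-1) to red (1). The block of ACTA2, TPM2, TAGLN and MYL9 holds values from 0.63 to 0.94, and the row of TPM1 holds none above 0.36.

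Outside the members, 5361 genes were ranked by r with each of the 3 most variable members. Nearest to MYH11 were PTPRM, a receptor phosphatase at cell contacts (r of 0.92, Spearman coefficient of 0.96, 0.90 without 2 lines), SPOP, a ubiquitin ligase adaptor (0.90), SMARCD3, a subunit of chromatin remodelling complexes in muscle (0.90), DNPH1 (0.89) and ARF5 (0.89). Without the same 2 lines these 4 gave 0.86, 0.94, 0.74 and 0.88. Nearest to ACTC1 were MAP1A, a microtubule-binding protein (0.89), BMERB1 (0.89), PMM1 (0.88), NFATC4, a calcium-responsive transcription factor (0.88), and AHCYL1 (0.86). Without 2 lines MAP1A gave 0.90, BMERB1 0.69, PMM1 0.70, NFATC4 0.89 and AHCYL1 0.67. Nearest to ACTA2 were POLR2I, an RNA polymerase subunit (0.92), the respiratory chain genes COX6A1 (0.87) and COX7A2 (0.85), MAD2L1BP (0.86) and RPS15 (0.86). For POLR2I the Spearman coefficient was 0.68. Without 2 lines POLR2I gave 0.84, COX6A1 0.79, COX7A2 0.86, MAD2L1BP 0.82 and RPS15 0.63. These are the highest of many coefficients over 10 lines, so they carry no test.

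The members were then compared between female and male lines with limma, with age in the model. None of the 16 tested probe sets differed by sex at an adjusted p under 0.05, where 0.0273% of all 7333 were called. None had an unadjusted p under 0.05, against 2.33% of all. The largest estimate was that of ACTC1, 0.99 ± 0.61 (SE) log2 higher in males, with an adjusted p of 0.9999. CNN1 had -0.63 ± 0.59 and ACTA2 -0.44 ± 0.63. The estimate was negative for 7 of 9 genes, with a median of -0.14 against 0.00 for all probe sets, of which 50.6% were positive. This count depended on single lines, and most on male line 3. Without male line 3 the estimate was positive for ACTA2 (0.28), TAGLN (0.083), MYH11 (0.12), MYL9 (0.086) and TPM2 (0.14). Without male line 2 it was positive for TAGLN (0.043), MYH11 (0.21) and MYL9 (0.10). Without female line 1 it was positive for MYH11 (0.55) and MYL9 (0.056), and without male line 4 for TAGLN (0.043) and MYL9 (0.083). That of ACTC1 was 0.58 without female line 4, where MYH11 (-1.09) was farther from 0, and 1.57 without female line 1. For MYH11 (-0.37 ± 0.997), the standard error was close to a change of 2-fold, so sizeable differences were not detectable with 5 lines a group.

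With donor age, 0 of 16 member probe sets passed in limma, where 0% of all 7333 were called. At an unadjusted p under 0.05 the count was 0 of 16, against 3.42% of all. ACTC1 had the largest estimate, -0.78 ± 0.42 (SE) log2 per 10 years (adjusted p = 0.999). It was -0.42 without female line 4, where MYH11 (0.67) was farther from 0, and -1.14 without male line 2. Its lowest lines were those of the females aged 20 years (174 and 301), but male line 5, aged 19 years, read 2314. MYLK had 0.47 ± 0.30 and TPM1 -0.25 ± 0.15. For MYL9 the slope was 0.00 ± 0.25 and for MYH11 0.05 ± 0.69.

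The age slope was also compared between the sexes, as the male slope minus the female slope. Of 16 probe sets 0 passed in limma, where 0.0136% of all 7333 were called, and 0 had an unadjusted p under 0.05, against 4.84% of all. All 9 gene estimates were positive, with a median of 0.73 log2 per 10 years against 0.01 for all probe sets, from 0.17 for TPM1 to 1.85 ± 1.34 (SE) for MYH11. ACTC1 had 1.38 ± 0.80 (adjusted p = 0.973). The genes share the same 10 lines, so their common sign is not 9 separate observations, and without male line 5 it turned for TAGLN (-0.51), MYLK (-0.67), MYL9 (-0.23) and TPM1 (-0.08). None of the genes in the 3 related lists passed any of these 3 comparisons in limma, and 0 to 2 genes a list had an unadjusted p under 0.05.

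**Figure D4:**
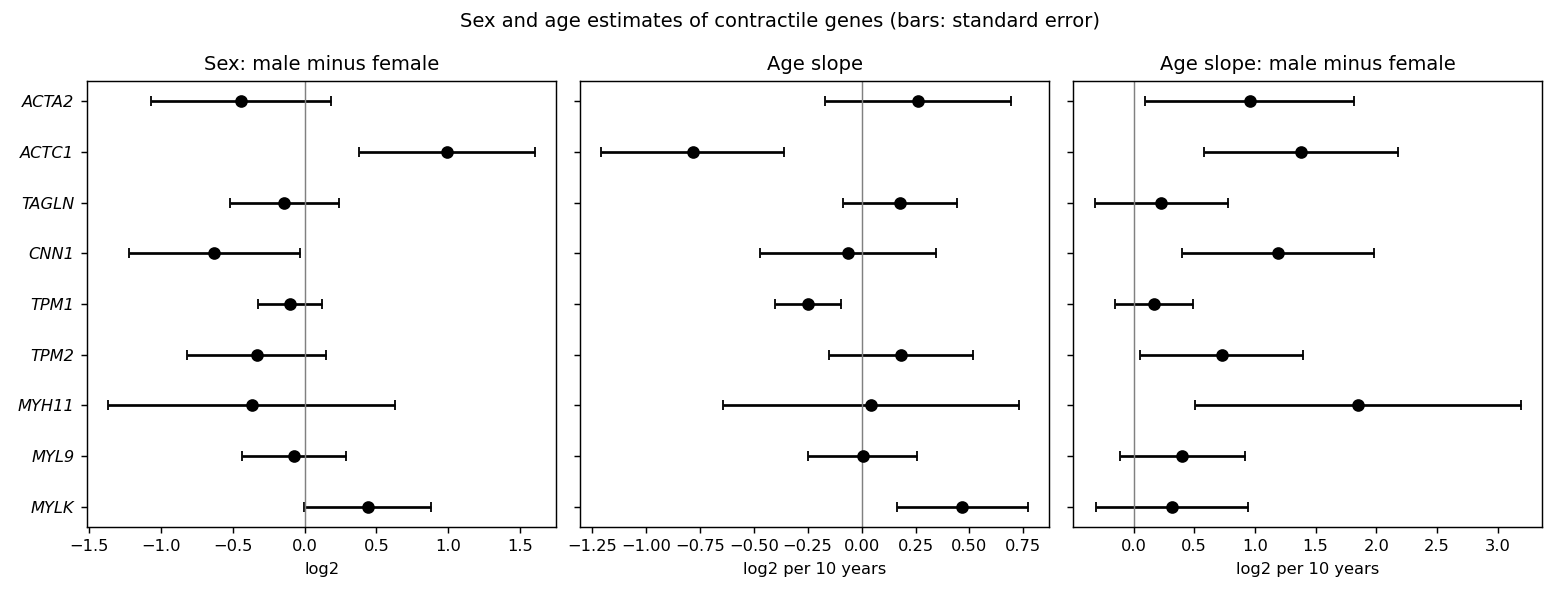
Estimates of the limma fits for the 9 tested contractile genes, with the standard error as bars, on the log2 scale: male minus female (left), slope per 10 years (middle) and male slope minus female slope (right). None of the estimates has an adjusted p under 0.05, and ACTC1 lies farthest from 0 in the left and middle panels.

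Most of these genes were higher in the culture taken at 50% confluence. Male line 1 gave 1 standard array and 1 at 50% confluence, so without replicates no test was made. Of the 18 member probe sets, all above the floor in at least 1 of these cultures, 10 were over 2-fold higher at 50% confluence, against 5.9% of all 8151 such probe sets. None was over 2-fold lower, against 5.43%. Of the 10, 4 belonged to MYH11, 2 to TPM1 and 1 each to ACTC1, CNN1, MYLK and TPM2. By gene, 5 of the 9 tested were over 2-fold higher, against 5.91% of 5196 tested genes above the floor in either culture. MYLK, 1 of the 5, was above the floor in 4 standard lines. It passed the filter of 5 cultures only through the 50% confluence array. The median log2 difference was 1.05 for the member probe sets and 0.01 for all.

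Among the actins, ACTC1 differed most, with 2842 in the standard culture and 12754 at 50% confluence, 4.49-fold higher. That was above all 10 standard lines, of which the highest read 3974. ACTA2 stood at 10185 and 12389 (1.22-fold), well inside the range of the lines. ACTG2 read 110 and 138.

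Of the proteins along actin, TPM1 went from 6510 to 16186 (2.49-fold), where no standard line exceeded 9084. Its probe set 36791_g_at had the same direction (3508 and 7061), whereas 36790_at was lower (2023 and 1586). TPM2 was also above every standard line, at 10584 and 18848 (1.78-fold), and its second probe set gave 9406 and 19898. CNN1 went from 362 to 1154 (3.19-fold), just above the highest line at 1033. TAGLN was the 1 gene of 9 with a lower value, at 24068 and 17618.

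In the motor group, MYH11 went from 874 to 3997 (4.57-fold), and its other probe sets from 561 to 2153, 238 to 795, 116 to 936 and 100 to 178. All 5 were higher, but female line 1 in standard culture was still higher on 3 of them (6163, 4195 and 891). MYLK went from 207 to 537 (2.59-fold), and MYL9 read 6616 and 6710. Across members, 8 of 18 probe sets lay above the range of the 10 standard lines at 50% confluence, against 11.9% of the 8151. On that array 18S ribosomal RNA was highest of all 11 and the ACTB 3' to 5' ratio lowest, and the part of either in these differences was not tested.

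**Figure D5:**
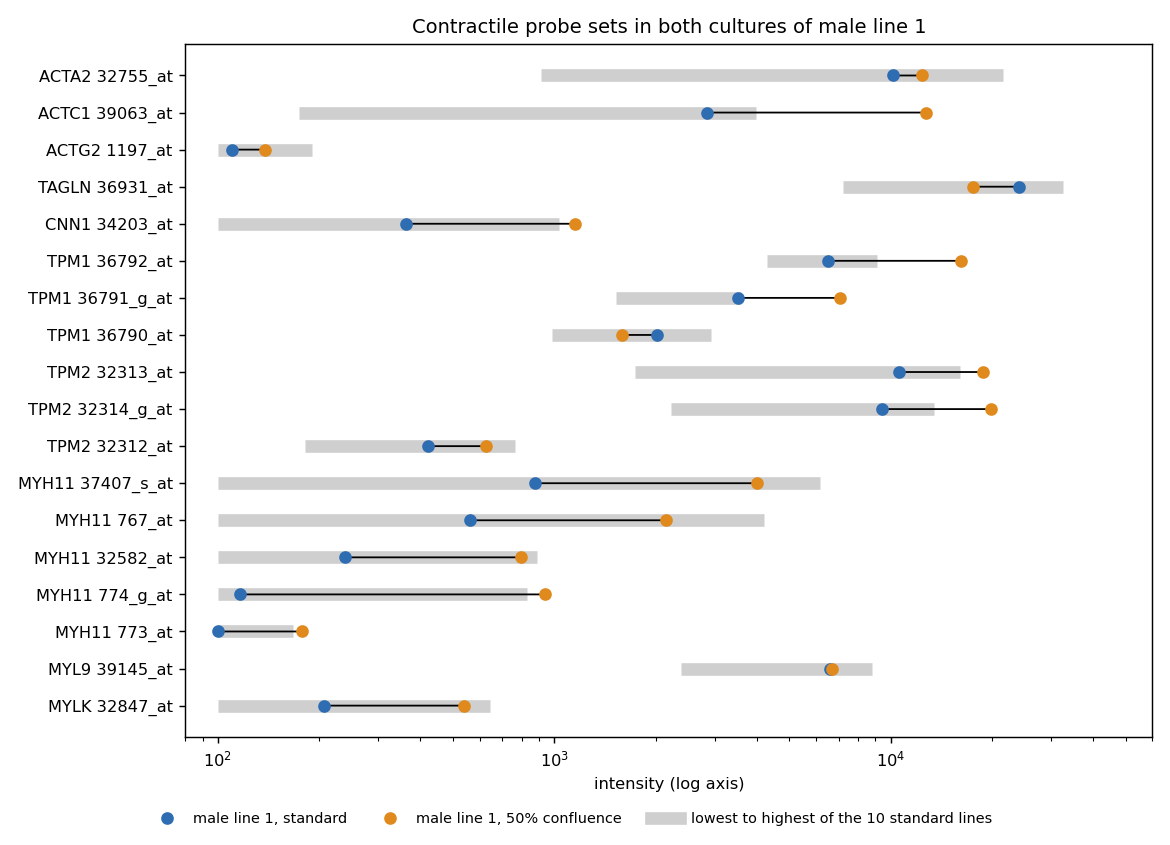
Deposited intensity (log axis) of the 18 contractile probe sets in the standard culture (blue) and the 50% confluence culture (orange) of male line 1, with the range of the 10 standard lines in grey. ACTC1, CNN1, 2 TPM1 and 2 TPM2 probe sets and 2 MYH11 probe sets end to the right of the grey bar, whereas TAGLN and 1 TPM1 probe set move left.

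In the related lists fewer genes passed 2-fold. Of 14 other smooth muscle filament genes, 0 changed over 2-fold in either direction and 10 were higher (median log2 difference 0.22), with the small heat shock protein HSPB1 the largest at 0.92. The non-muscle counterparts had 2 of 10 over 2-fold higher, the light chain MYL12A (2742 and 6002) and the cross-linker ACTN4 (6205 and 12996). Their median was -0.01, and ACTB read 21394 and 20096. Of 17 TGF-beta pathway genes, THBS1, an activator of latent TGF-beta, was 2.89-fold higher, and the ligand TGFB1 and the transducer SMAD3 were 3.37-fold and 2.30-fold lower.

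Mature smooth muscle and pericyte markers moved both ways at 50% confluence. Of 9 above the floor in at least 1 of these cultures, 4 were higher, although the sum was lower. The summed intensity of 14 measured genes was 14411 in the standard culture and 8906 at 50% confluence, against 7571 to 10430 in the 5 females and 6712 to 14411 in the 5 males. Within the list, NOTCH3 (2223 and 480) and PDGFRB (6679 and 2688), both receptors of mural cells, had the largest falls. They were the only genes of the list over 2-fold lower. SMTN (2072 and 2448) and LMOD1 (657 and 925) were higher. The potassium channel subunit ABCC9 was also higher (at or below the floor of 100, then 384). DES, PLN and CASQ2 were at the floor in both cultures. The 24 striated muscle markers summed to 5037 and 5472, and ACTA1 read 174 and 100, while the 10 fibroblast markers summed to 88819 and 81131, with FBLN1, a matrix protein, 2.91-fold lower. CD68, a macrophage gene of the blood cell list, read 226 and 607. The part of other cell types in the differences was not tested.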

How the data were processed

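Total RNA of 11 fibroblast cultures was measured on Affymetrix human arrays. The authors deposited 1 linear intensity per probe set, with low values raised to a floor of 100 (90 in 2 arrays). Probe summary and scaling are not given in the sources used here. Probes follow human sequences, so bonobo sequence differences can lower a signal.

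Values were kept as scaled, floored at 100 and put on the log2 scale, which was computed here from the deposited values. Without 67 control probe sets, 7333 of 12558 were above the floor in at least 5 of 11 arrays and were tested. Above the floor were 52.1% to 60.9% of probe sets per array. The number of arrays limits the precision. Gene names come from the platform annotation of 2016 (1 symbol for 10943 probe sets, several for 545, none for 1070). Of the 10 members, 9 were found in a bonobo RefSeq gene table of assembly NHGRI_mPanPan1-v2.0_pri.

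Sex and age, and their interaction, were fitted with limma 3.58.1 in R 4.3.3 (eBayes with an intensity trend) on the 10 standard lines, with Benjamini-Hochberg adjustment over 7333 probe sets and a two-sided threshold of 0.05. The fit was checked on simulated data. P-values measure the spread between lines with 1 culture each. Replicates are numbered in accession order. Alternatives were other scalings, floors, filters, variance models and age codings, and leaving out each line. Named genes were all members, the 5 nearest by r to the 3 most variable members, and, of the 3 related lists reported, those past 2-fold and some of largest SD. ACTB, HSPB1 and marker genes were named besides, after their values were seen. Members and lists were chosen with earlier results of these data known. Results of 1 further gene list are not reported here.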

Additional observations from a re-analysis of the deposited data

Results flagged for a closer look

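In 3 of 32 sets of 5 lines examined on the log2 scale, 1 line stood far from the other 4. Chance gives about 1 in 20 for values without a floor, a rate that does not hold here, since most of the other lines in these 3 sets were at the floor, and 2 of the sets are the same gene in the same line. On 2 weaker MYH11 probe sets female line 1 stood above the other females: 891 (32582_at) against 100 to 180, and 830 (774_g_at) against 100 in each of them. On the MYLK probe set female line 4 read 252 against 100 to 119 in the other females.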

How the results depend on the processing

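In limma, 0 member probe sets passed for sex, age or their interaction under any alternative run. The harvest count of 10 stayed between 9 and 12 under other scalings, floors and fold limits, and was 5 when each gene was counted once, over 9 genes. The spread count of 6 ran from 4 to 7 and the pair count of 15 from 10 (floor at 200) to 16. The sign of the sex difference turned for MYL9 with array weights (0.047), and that of the age slope for CNN1 with log2 of age (0.041). The cause was not tested.

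Leaving out 1 line at a time turned several signs, none of them of a called value. The sex difference then ran from -0.90 to 0.28 for ACTA2, -0.49 to 0.083 for TAGLN, -1.09 to 0.55 for MYH11, -0.030 to 0.73 for MYLK, -0.40 to 0.10 for MYL9, -0.25 to 0.035 for TPM1 and -0.69 to 0.14 for TPM2. The age slope per 10 years ran from -0.088 to 0.46 for ACTA2, -0.091 to 0.36 for TAGLN, -0.36 to 0.38 for CNN1, -0.44 to 0.67 for MYH11, -0.25 to 0.23 for MYL9 and -0.096 to 0.41 for TPM2. The slope difference ran from -0.51 to 0.76 for TAGLN, -0.67 to 0.80 for MYLK, -0.23 to 0.81 for MYL9 and -0.077 to 0.47 for TPM1. Over all alternatives together, the other scalings, floors, filters, models and age codings included, signs turned in 16 of 167 sex, 15 of 167 age and 8 of 158 interaction values. For MYL9 at 50% confluence the difference of 0.02 was -0.16 with quantile normalization. No paired analysis was possible, since each line is a different animal and the 1 line cultured in both states gives a single pair. ACTC1, whose sign held, ran from 0.58 (without female line 4) to 1.57 (without female line 1) for sex and from -1.14 (without male line 2) to -0.42 (without female line 4) for age.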

Other observations

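Some marker genes of other muscle types gave signal. TNNT1, the slow skeletal troponin T, was above the floor in all 11 cultures and read 763 to 2612 in the standard lines. MYOG, a skeletal muscle transcription factor, was above it in 9 cultures, with at most 405. KCNMB1, a potassium channel subunit of smooth muscle, read 169 to 549, and CSPG4, a pericyte proteoglycan, 100 to 1378 with an SD of 1.20. Values of 1 probe set each are given without a test.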
